A study of Camellia sinensis and Camellia sinensis var. assamica with 18 samples.

Results

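This comparison set leaves of the tea cultivar YH9 after de-acclimation (YH9_DA) against leaves of the same cultivar that had never been chilled (YH9_NA), to find what remained changed after a cold period and a return to warmth. YH9 is Camellia sinensis var. assamica cv. Yinghong 9, described as cold-sensitive. YH9_DA seedlings were sampled on day 21, after 7 days at 10/4 °C (day/night), then 7 days at 4/0 °C and last 7 days at 25/20 °C. YH9_NA seedlings were sampled on day 0 at 25/20 °C. All were tissue culture seedlings raised in a growth chamber, each group held 3 libraries labelled as replicates, and these 6 libraries were chosen by their labels out of 18. The other groups were YH9 at the end of the cold period on day 14 (YH9_CA), and the cold-tolerant Shuchazao (SCZ) at the same stages (SCZ_DA, SCZ_CA and SCZ_NA). YH9_DA and YH9_NA differ in the sampling day and in the age of the seedlings as well as in their temperature history, and these cannot be told apart. The time of day of harvest is not given in the sources used here.

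Cold acclimation is the gain of freezing tolerance during days of low temperature. CBF transcription factors switch on cold-regulated genes such as those of LEA proteins, which protect cells against dehydration, and rewarming reverses much of this within days. Heat shock proteins are chaperones that keep other proteins folded. Their genes are driven by heat stress transcription factors and respond to temperature quickly. Light-harvesting chlorophyll a-b binding proteins form the antennae of both photosystems, and many of their genes, like those of the circadian clock, change in level over the day.

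The measure was RNA-seq, given for each locus as FPKM (a fragment count scaled by transcript length and by library size) and as an estimated count. The total count per library was 49858297 to 67637781 (median 53797952) in YH9_DA and 47418597 to 78241890 (median 64864398) in YH9_NA. Of 41021 loci, 29019 were tested, those whose FPKM reached 1 in 3 or more of the 18 libraries. A locus was called a DEG at a change of at least 2-fold and an adjusted p under 0.05 in edgeR's quasi-likelihood test, which took 1 spread estimate from all 18 libraries. Pearson's r of log2(FPKM + 1) was 0.963 to 0.971 among the YH9_DA libraries, 0.946 to 0.953 among the YH9_NA libraries and 0.921 to 0.948 between the groups.

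In YH9_DA vs. YH9_NA, 16 DEGs were up-regulated and 93 were down-regulated. The 109 DEGs were 0.376% of the loci tested, with 0.0551% up-regulated and 0.32% down-regulated. Loci of the chaperone and heat shock lists, which also hold heat stress transcription factors and other heat-induced proteins, took a large share of them. These lists held 31 of the 109 DEGs, and all 31 were down-regulated. A further 6 encoded light-harvesting proteins, also all down-regulated. The log2 fold change over all loci had a median of 0.00 and quartiles of −0.31 and 0.33. The median SE was 0.39, and the 95% interval of 10811 loci (37.3%) lay within a 2-fold change in either direction. At the remaining loci an uncalled change of 2-fold or more lay within the interval. Every one of the 109 DEGs had FPKM values that did not overlap between the groups. Over all loci, 24.4% were higher and 7.05% were lower without overlap. FPKM is scaled by the total of each library, and on log2(FPKM + 1) the median of all loci was 0.14, while counts scaled by library totals alone gave 0.18. The changes given below are those after TMM scaling, with the median at 0.00.

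The number of DEGs differed between fits that took the spread from fewer groups or used another tool. With the spread of YH9_DA and YH9_NA alone, edgeR called 179 up-regulated (0.617%) and 297 down-regulated (1.02%) loci, 476 in all (1.64%). With the spread of the 9 YH9 libraries it called 254 (0.875%) and 361 (1.24%), or 615 (2.12%). DESeq2 on all libraries called 170 (0.586%) and 265 (0.913%), or 435 (1.5%), and limma on log2(FPKM + 1) called 254 (0.875%) and 144 (0.496%), or 398 (1.37%). The limma fit also differs in using neither counts nor TMM scaling. The share of up-regulated DEGs was thus 14.7% in the 18-library fit, 37.6%, 41.3%, 39.1% and 63.8% in the others in the order given. Of the 109 DEGs, 99, 105, 109 and 96 were also called in these 4 fits, in the same order. The biological coefficient of variation was 0.288 within YH9_DA, 0.384 within YH9_NA and 0.453 over all 6 groups.

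**Figure D1:**
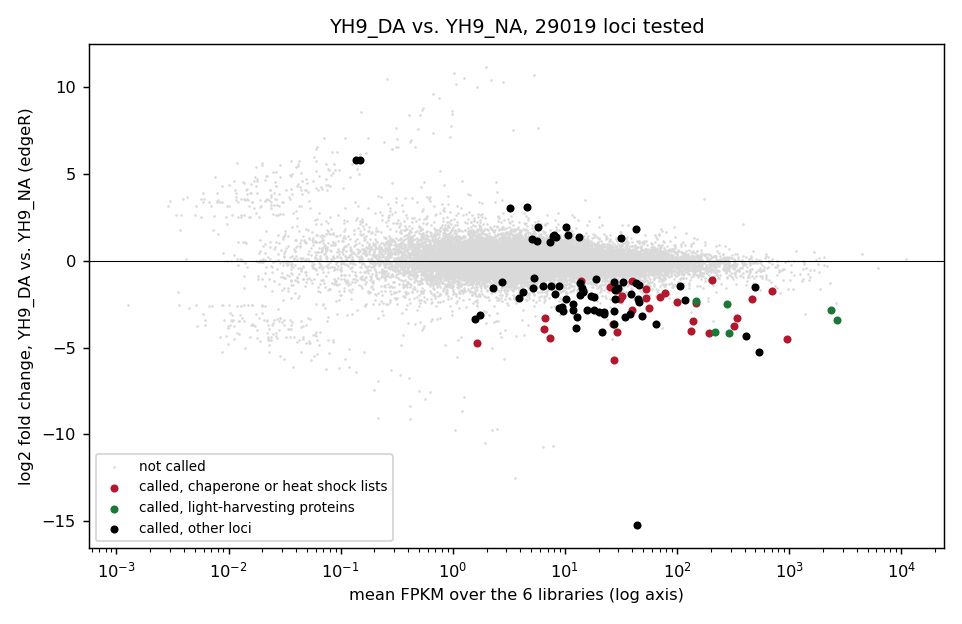
Log2 fold change of YH9_DA vs. YH9_NA (edgeR) against the mean FPKM over the 6 libraries on a log axis, 1 point per locus tested, without loci at 0 in all 6 libraries. Grey points are not called, and the 109 DEGs are colored by list: the 31 of the chaperone and heat shock lists and the 6 light-harvesting loci all lie below 0.

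Single libraries also moved these counts. Without YH9_DA replicate 2 the down-regulated DEGs numbered 30, without YH9_DA replicate 3 they numbered 28, without YH9_DA replicate 1 they numbered 57, without YH9_NA replicate 1 they numbered 48, and without SCZ_CA replicate 2 they numbered 142. The up-regulated DEGs numbered 3, 2, 8, 7 and 36 in the same fits, 8 without YH9_NA replicate 3 or SCZ_DA replicate 2, 10 without YH9_CA replicate 3 and 26 without SCZ_NA replicate 1. None of the 109 DEGs changed its direction in any of the 18 fits. As no DEG overlapped between the groups in FPKM, leaving out 1 library could hardly reverse a direction. Of the 109 DEGs, 27 were called in all 18 fits. Among the 27 were CSS002607, CSS014130, CSS007224, CSS040324, CSS033163, CSS034436, CSS014241, CSS038052, CSS008432, CSS045378, CSS004902, CSS004811, CSS022482, CSS006826, CSS021146, MSTRG.975, MSTRG.4954 and MSTRG.3517, which are described below. For the other DEGs the libraries whose removal ended the call are given with the highest adjusted p of the 18 fits.

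Among the heat stress transcription factors, 1 of 17 tested was called. CSS038896, annotated as heat shock transcription factor A2, whose homologue in Arabidopsis sustains the transcription of heat shock protein genes, had an FPKM of 1.56, 0.443 and 0.686 in YH9_DA, against 7.47, 17.2 and 11.7 in YH9_NA. The groups did not overlap, and edgeR's quasi-likelihood test gave a log2 fold change of −3.93 with an SE of 0.62 and an adjusted p of 0.00797. It averaged 1.4 FPKM in YH9_CA on day 14. The other 16 factors had log2 fold changes of −2.28 to 0.84, and the median of the list was −0.08, or 0.04 with library totals and 0.08 on log2(FPKM + 1). The heat-induced coactivator MBF1c (CSS053020) had 44.7, 17.0 and 18.3 FPKM in YH9_DA, against 359, 207 and 191 FPKM in YH9_NA, also without overlap (−3.46, SE 0.55, adjusted p = 0.00797). Its YH9_CA mean was 5.11 FPKM. Both calls were lost without YH9_DA replicate 2 or 3, with adjusted p up to 0.0876 for CSS038896 and 0.0854 for CSS053020.

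Small heat shock proteins, which hold unfolding proteins in a state that can be refolded, were the list with the lowest median. Of 13 tested, 8 fell and none rose, and 11 were lower without overlap, beside 7.05% of all loci. The median log2 fold change was −3.34 beside 0.00 for all loci. Summed FPKM covers all loci of a list, here and below, including those not tested. For this list it was 112, 84.0 and 84.7 in YH9_DA, against 1031, 965 and 694 in YH9_NA. The class II protein CSS002607 had 1.61, 0.680 and 1.07 FPKM in YH9_DA, against 70.1, 52.3 and 38.1 FPKM in YH9_NA. It was 53.5-fold lower (log2 fold change −5.74, SE 0.57, adjusted p = 0.000344). The class I protein CSS014130, at 31.9, 16.2 and 20.5 FPKM in YH9_DA, against 410, 353 and 313 FPKM in YH9_NA, was 18-fold lower (−4.17, SE 0.47, adjusted p = 0.000555). A chloroplast member, CSS021664, had 23.3, 14.7 and 13.2 FPKM in YH9_DA, against 222, 345 and 180 FPKM in YH9_NA, and another, CSS029227, averaged 3.72 ± 1.9 FPKM in YH9_DA and 54.9 ± 18.9 FPKM in YH9_NA (SD, n = 3 each). Their log2 fold changes were −4.06 (SE 0.58, adjusted p = 0.00425) and −4.10 (SE 0.65, adjusted p = 0.00815), and both calls were lost without YH9_DA replicate 2 or 3 (adjusted p up to 0.0528 and 0.0926). The remaining called members were CSS051023 (−4.43), CSS050014 (−3.31), the merged locus CSS004070;CSS004069 (−2.18) and CSS014136 (−1.69), with adjusted p between 0.0375 and 0.0474. These calls were lost in 9 to 14 of the 18 fits, without any of the YH9_DA libraries, without YH9_NA replicate 1 and without several libraries of the other groups, with adjusted p up to 0.262. Small heat shock protein genes are near copies of each other in many plants, and reads shared between copies may have been split among loci, so the values of a single member are less certain than their sum.

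The HSP70 chaperones, which bind exposed stretches of unfolded proteins, held 6 DEGs of 17 tested, all down-regulated (median log2 fold change −1.15). In FPKM, 12 members were lower and 1 higher without overlap, beside 7.05% and 24.4% of all loci. The summed FPKM was 852, 735 and 726 in YH9_DA, against 4654, 3550 and 3125 in YH9_NA. CSS023573/MSTRG.18937, the most abundant member on day 0, had 132, 79.6 and 70.9 FPKM in YH9_DA, against 2433, 1677 and 1390 FPKM in YH9_NA (−4.49, SE 0.65, adjusted p = 0.00423). CSS007224, a heat shock cognate protein, had 81.9, 35.2 and 36.7 FPKM in YH9_DA, against 727, 580 and 481 FPKM in YH9_NA (−3.75, SE 0.51, adjusted p = 0.00267). CSS041491 had 216, 153 and 180 FPKM in YH9_DA, against 882, 678 and 685 FPKM in YH9_NA (−2.23, SE 0.34, adjusted p = 0.00570). None of these 3 loci overlapped between the groups. CSS025041 (−2.10), CSS007140 (−4.73, at a mean of only 3.13 FPKM in YH9_NA) and the mitochondrial CSS009481 (−1.15) completed the called members. The calls at CSS023573, CSS041491, CSS025041 and CSS007140 were lost without YH9_DA replicate 2 or 3 (adjusted p up to 0.0914), and that at CSS009481 was lost in 11 fits, including those without any library of YH9_DA or YH9_NA (adjusted p up to 0.213).

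HSP90 chaperones, which help signalling proteins to mature, held 2 DEGs of 5 tested. HSP90-2 (CSS033163) had 102, 53.2 and 63.3 FPKM in YH9_DA, against 706, 601 and 535 FPKM in YH9_NA (−3.28, SE 0.42, adjusted p = 0.00132). Heat shock cognate protein 80 (CSS000992) had 433, 315 and 340 FPKM in YH9_DA, against 1120, 1031 and 999 FPKM in YH9_NA (−1.73, SE 0.25, adjusted p = 0.00440), a call lost without YH9_DA replicate 2 or 3 (adjusted p up to 0.0595). Of the HSP100 proteins, which pull aggregated proteins apart, HSP101 (CSS034436) had 40.5, 34.5 and 32.1 FPKM in YH9_DA, against 175, 168 and 153 FPKM in YH9_NA (−2.40, SE 0.30, adjusted p = 0.00132). The mitochondrial ClpB4 (CSS017740) averaged 9.41 ± 1.26 FPKM in YH9_DA and 18.4 ± 1.94 FPKM in YH9_NA (−1.15, SE 0.23, adjusted p = 0.0375). This call was lost in 12 fits, including those without any library of YH9_DA or YH9_NA (adjusted p up to 0.212).

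Proteins that work with these chaperones held further DEGs. The co-chaperones and other heat-induced proteins held 6 DEGs of 21 tested, all down-regulated (median log2 fold change −0.79, with 16 loci below 0 and 5 above). Hop (CSS014241), which links HSP70 to HSP90, had 61.6, 43.1 and 48.2 FPKM in YH9_DA, against 252, 238 and 242 FPKM in YH9_NA (−2.45, SE 0.27, adjusted p = 0.000555). A second Hop locus, CSS030042, averaged 28.9 ± 5.37 FPKM in YH9_DA and 77.2 ± 6.11 FPKM in YH9_NA (−1.61, SE 0.25, adjusted p = 0.00630). EGY3 (CSS008432), annotated as a chloroplast metallopeptidase and heat-induced in Arabidopsis, had 38.9, 39.1 and 34.2 FPKM in YH9_DA, against 140, 122 and 96.2 FPKM in YH9_NA (−1.88, SE 0.21, adjusted p = 0.000605). HEAT-STRESS-ASSOCIATED 32 (CSS053505), needed in Arabidopsis to keep acquired heat tolerance, changed by −1.51, and a peptidyl-prolyl isomerase that binds HSP90 (CSS038571) by −2.84. The call at CSS030042 was lost without YH9_DA replicate 2 or 3 (adjusted p up to 0.0736), that at CSS053505 also without YH9_NA replicate 1 (up to 0.126), and that at CSS038571 in 10 fits (up to 0.198).

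DnaJ proteins, which deliver substrates to HSP70, held 4 DEGs among 52 tested, all down-regulated, with a list median of −0.12 that became 0.06 with library totals and 0.05 on log2(FPKM + 1). CSS040324 had 6.52, 3.38 and 3.42 FPKM in YH9_DA, against 39.5, 61.5 and 47.6 FPKM in YH9_NA (−3.66, SE 0.43, adjusted p = 0.000866). Unlike HSFA2 and MBF1c it averaged 64.0 FPKM in YH9_CA, so its low values were those of day 21. ERDJ3A (CSS038052), a DnaJ protein of the endoplasmic reticulum, averaged 14 ± 4.34 FPKM in YH9_DA and 50.9 ± 8.15 FPKM in YH9_NA (−2.06, SE 0.28, adjusted p = 0.00287). CSS021167 (−2.70) and CSS007047 (−2.14) were the other called members. Their calls were lost without YH9_DA replicate 2 or 3, and that at CSS007047 also without YH9_NA replicate 1 (adjusted p up to 0.126). Chaperonins, the barrel-shaped folding machines, held 2 DEGs of 15, the chloroplast RuBisCO-binding subunit CSS026736 (−1.13, adjusted p = 0.0232) and the mitochondrial CPN60-2 CSS015822 (−1.49, adjusted p = 0.0302), and had a median of 0.17. Both calls were lost without any library of YH9_DA or YH9_NA (adjusted p up to 0.192).

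**Figure D2:**
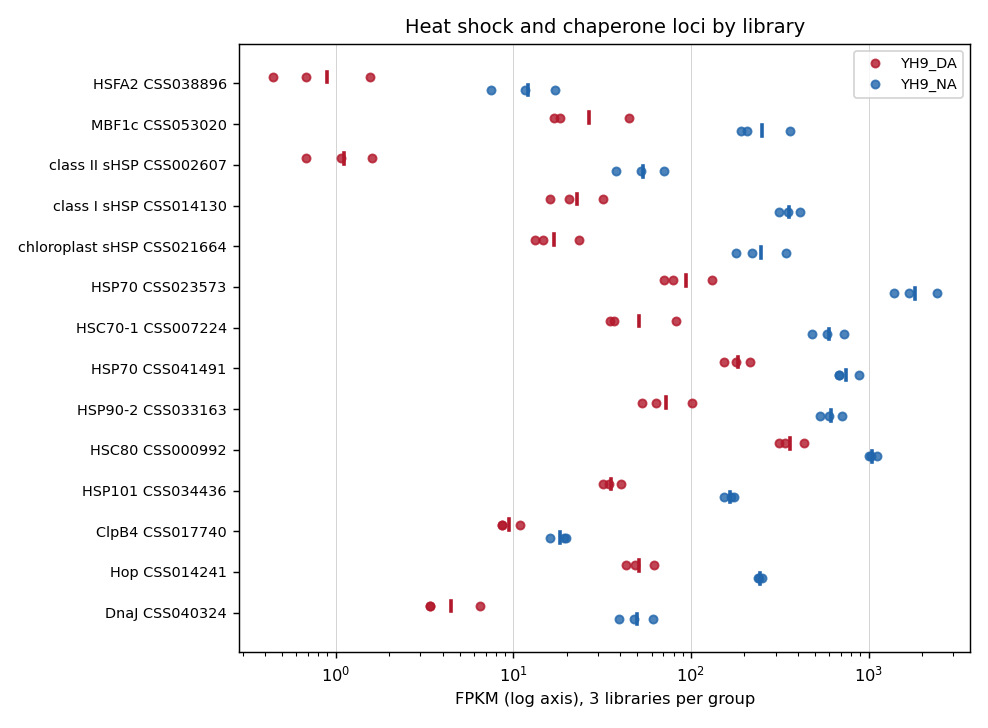
FPKM (log axis) of 14 heat shock and chaperone loci in the 3 YH9_DA libraries (red) and the 3 YH9_NA libraries (blue), with a vertical bar at each group's mean. In each locus all 3 YH9_DA values lie below all 3 YH9_NA values, from HSFA2 at 0.443 to 1.56 FPKM in YH9_DA to ClpB4 at 8.67 to 10.9 FPKM in YH9_DA.

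Over all 144 loci tested in the chaperone lists, 31 fell and none rose, and the median log2 fold change was −0.38. Without overlap 59 were lower and 22 higher, beside 7.05% and 24.4% of all loci. The 31 were 21.5% of these loci, beside 0.270% called outside these lists. The lists were chosen with earlier results of these data known, so this contrast is a description and not a test. Without YH9_DA replicate 2 or replicate 3 the 31 became 9, and without YH9_NA replicate 1 they became 20. In the order of the days, the summed FPKM of the small heat shock proteins was 694 to 1031 in YH9_NA, 44 to 62 in YH9_CA and 84 to 112 in YH9_DA, so the list was low at both later stages. The sum of the HSP70 list was 3125 to 4654 in YH9_NA, 1380 to 1749 in YH9_CA and 726 to 852 in YH9_DA, lowest at the last stage.

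Light-harvesting proteins were the second group. Of 18 tested, 6 fell and none rose, and all 18 had a log2 fold change below 0 (−4.19 to −0.89, median −2.36). FPKM was lower without overlap at 17, beside 7.05% of all loci. The summed FPKM was 5533, 7767 and 6860 in YH9_DA, against 33786, 23139 and 26210 in YH9_NA. CSS045378, a type 1 protein of the photosystem II antenna, had 32.0, 30.2 and 40.8 FPKM in YH9_DA, against 647, 385 and 614 FPKM in YH9_NA (−4.19, SE 0.49, adjusted p = 0.000713). CSS004902, another of type 1, averaged 27 ± 2.4 FPKM in YH9_DA and 410 ± 112 FPKM in YH9_NA (−4.12, SE 0.51, adjusted p = 0.00107). The most abundant, CSS045379/MSTRG.12418, was nearly equal among the de-acclimated libraries, at 527, 529 and 520 FPKM in YH9_DA, against 5999, 4090 and 4464 FPKM in YH9_NA (−3.40, SE 0.61, adjusted p = 0.0199). Type 1 genes are often near-identical copies, and reads may have been divided among them.

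Chlorophyll a-b binding protein 151 (CSS027340), of the photosystem II antenna, had 512, 795 and 671 FPKM in YH9_DA, against 5182, 3214 and 3786 FPKM in YH9_NA (−2.82, SE 0.50, adjusted p = 0.0188). Protein 6A (CSS018780), of the photosystem I antenna, had 90.7, 91.8 and 95.9 FPKM in YH9_DA, against 542, 392 and 453 FPKM in YH9_NA (−2.51, SE 0.37, adjusted p = 0.00515). CSS021240 averaged 54.7 ± 28.7 FPKM in YH9_DA and 242 ± 34.6 FPKM in YH9_NA (−2.32, SE 0.44, adjusted p = 0.0296). Calls at these 3 loci and at CSS045379 were lost without YH9_DA replicate 2 or 3, and, CSS018780 excepted, also without YH9_DA replicate 1 or YH9_NA replicate 1 and, for CSS021240, YH9_NA replicate 3 (adjusted p up to 0.142). The list then held 2 DEGs without YH9_DA replicate 2 or 3, and 3 without YH9_DA replicate 1 or YH9_NA replicate 1. With the spread of the 2 groups alone it held 13, and in DESeq2 15. In bulk leaf samples, fewer cells of a type and less RNA per cell cannot be told apart.

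The photosystem cores and the enzymes of carbon fixation held no DEG. Of 50 photosystem, electron transport and ATP synthase loci, edgeR called 0, with 8 lower and 0 higher at an unadjusted p under 0.05, DESeq2 called 1 and limma 0. Their median log2 fold change was −0.52, or −0.32 with library totals and −0.22 on log2(FPKM + 1). Of the 50, 41 were below 0, and 15 were lower and 6 higher without overlap, beside 7.05% and 24.4% of all loci. An interval within 2-fold was reached by 7, and 4 were called lower with the spread of the 9 YH9 libraries. The difference from the light-harvesting list was not tested. Plastocyanin (CSS016818), which carries electrons to photosystem I, averaged 1166 ± 143 FPKM in YH9_DA and 1927 ± 663 FPKM in YH9_NA, with a 95% interval of the log2 fold change from −1.87 to 0.01. An oxygen-evolving enhancer protein (CSS019777) averaged 2019 ± 188 FPKM in YH9_DA and 2105 ± 275 FPKM in YH9_NA (interval −0.98 to 0.47). Of 19 Calvin cycle loci, edgeR called 0, with 1 lower at an unadjusted p under 0.05, and DESeq2 and limma called 1 each. Their median was 0.12. The small subunit of RuBisCO (CSS017875), the most abundant of them, averaged 12033 ± 648 FPKM in YH9_DA and 9802 ± 1703 FPKM in YH9_NA (0.10, interval −0.72 to 0.93).

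**Figure D3:**
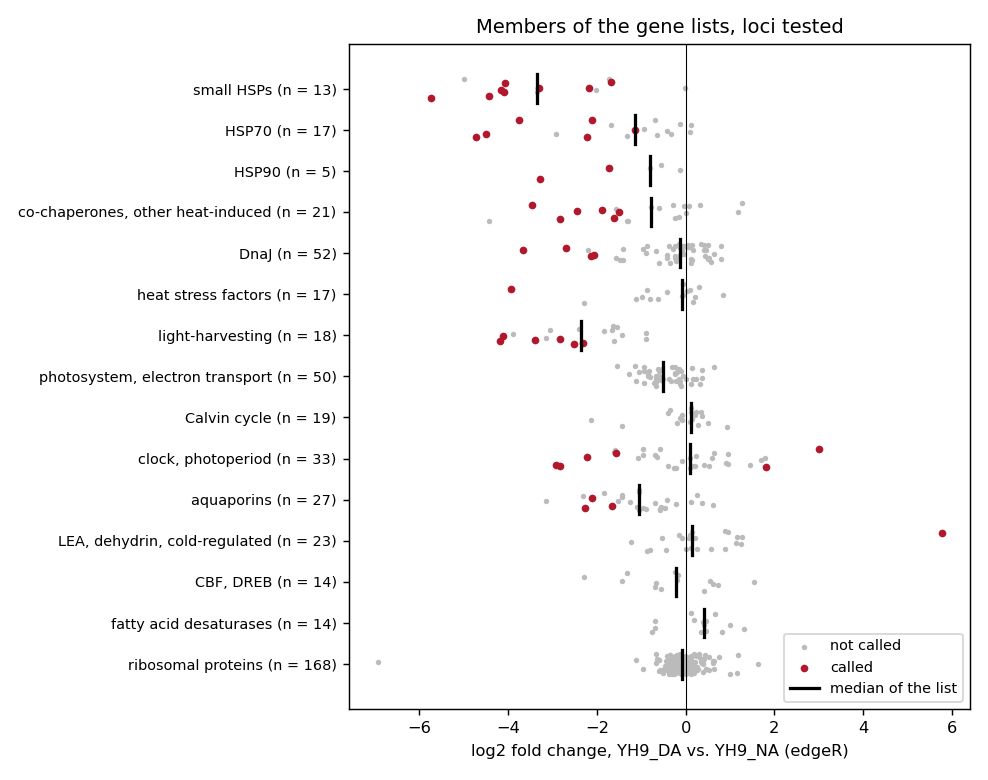
Log2 fold change of YH9_DA vs. YH9_NA (edgeR) for each locus tested in 15 gene lists, with DEGs in red, other loci in grey and a black bar at the median of each list. The medians run from −3.34 for small heat shock proteins and −2.36 for light-harvesting proteins to 0.41 for fatty acid desaturases.

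Clock and photoperiod factors moved in both directions. Of 33 tested, 2 rose and 4 fell, beside 0.0551% and 0.32% of all loci, and the list median was 0.09. GIGANTEA (CSS034243), an evening-expressed protein that links the clock to flowering, had 2.1, 3.45 and 2.03 FPKM in YH9_DA, against 22.6, 12.9 and 14.7 FPKM in YH9_NA (−2.92, SE 0.46, adjusted p = 0.00726). It averaged 617 FPKM in YH9_CA. A second GIGANTEA locus, CSS003937, was not called (0.52, adjusted p = 0.633). EARLY FLOWERING 4 (CSS004811), part of the evening complex of the clock, had 4.10, 4.60 and 3.34 FPKM in YH9_DA, against 18.8, 16.4 and 14.4 FPKM in YH9_NA (−2.23, SE 0.23, adjusted p = 0.000375), and averaged 47.2 FPKM in YH9_CA. For both loci the day 21 values were thus lower than those of both earlier stages.

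The pseudo-response regulator PRR37 (CSS014016) averaged 4.96 ± 1.62 FPKM in YH9_DA and 31.4 ± 4.28 FPKM in YH9_NA (−2.83, SE 0.51, adjusted p = 0.0228), and REVEILLE 6 (CSS033820), a MYB-like clock factor, averaged 7.91 ± 1.68 FPKM in YH9_DA and 20.4 ± 4.89 FPKM in YH9_NA (−1.56, SE 0.24, adjusted p = 0.00662). Cyclic dof factor 2 (CSS003333), whose Arabidopsis homologue represses CONSTANS, had 55.8, 79.7 and 70.1 FPKM in YH9_DA, against 20.1, 14 and 16.9 FPKM in YH9_NA (1.82, SE 0.36, adjusted p = 0.0375). CONSTANS-LIKE 9-1 (CSS023835) had 5.77, 5.32 and 6.28 FPKM in YH9_DA, against 0.797, 0.608 and 0.464 FPKM in YH9_NA (3.01, SE 0.48, adjusted p = 0.00797), 8.04-fold higher. A second locus of that name, CSS004624, had a log2 fold change of 1.70 and was not called (adjusted p = 0.0819). The list held 1 DEG without YH9_DA replicate 3, 3 without YH9_DA replicate 2 or YH9_NA replicate 3, and 1 to 8 over the 18 fits. The call at CSS003333 was lost in 11 fits, that at CSS014016 in 5, that at CSS023835 without YH9_DA replicate 3, YH9_NA replicate 2 or YH9_NA replicate 3, that at CSS034243 without YH9_DA replicate 1 or 3, and that at CSS033820 without YH9_DA replicate 2 or 3 (adjusted p up to 0.178). The part of the harvest hour in these values was not tested.

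Of 14 cryptochromes, phytochromes and UV receptors, 1 was called. CSS022482, annotated as the ultraviolet-B receptor UVR8, had 8.77, 7.76 and 5.84 FPKM in YH9_DA, against 57.7, 64.9 and 63.0 FPKM in YH9_NA (−3.23, SE 0.40, adjusted p = 0.00107). Its mean was 59.2 FPKM in YH9_CA, near that of day 0, so the low values were again those of day 21. The other 13 had log2 fold changes of −0.56 to 0.37.

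Aquaporins, the water channels of plant membranes, held 3 DEGs of 27, all down-regulated. The list median was −1.04, and 18 loci were lower and 2 higher without overlap, beside 7.05% and 24.4% of all loci. The summed FPKM was 2233, 2130 and 2251 in YH9_DA, against 3783, 3210 and 4054 in YH9_NA. CSS020345, annotated as AQU15, had 47.4, 43.0 and 46.1 FPKM in YH9_DA, against 261, 151 and 156 FPKM in YH9_NA (−2.26, SE 0.43, adjusted p = 0.0296). A second AQU15 locus, CSS027662, averaged 7.62 ± 0.894 FPKM in YH9_DA and 28.6 ± 7.16 FPKM in YH9_NA (−2.11, SE 0.40, adjusted p = 0.0339). CSS020418/MSTRG.20217 averaged 14.5 ± 0.578 FPKM in YH9_DA and 41.1 ± 11.8 FPKM in YH9_NA (−1.67, SE 0.33, adjusted p = 0.0375). The list held 0 DEGs without YH9_DA replicate 1, 2 or 3 or YH9_NA replicate 1, and 1 without YH9_NA replicate 2, while 15 of its loci were lower at an unadjusted p under 0.05 in the fit of all libraries, 7 were called by DESeq2 and 4 by limma.

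Other named falls were 1 or 2 loci of a list, or loci in no list. Over all loci 0.32% were down-regulated DEGs, and these calls are given as loci, not as results about their lists. In abscisic acid signalling 2 of 38 loci fell and none rose. They were the receptor PYL8 (CSS036090), at 2.79, 2.48 and 3.49 FPKM in YH9_DA, against 7.43, 6.97 and 8.19 FPKM in YH9_NA (−1.55, SE 0.26, adjusted p = 0.0138), and protein phosphatase 2C 27 (CSS011764; −2.05, adjusted p = 0.0138). Of 98 antioxidant enzymes 1 fell, an ascorbate peroxidase that removes hydrogen peroxide (CSS032148), at 372, 218 and 250 FPKM in YH9_DA, against 583, 747 and 823 FPKM in YH9_NA (−1.54, SE 0.28, adjusted p = 0.0254). Of 93 cuticle, wax and lipid transfer loci 1 fell, the ABC transporter CSS009498 (−2.93, adjusted p = 0.00974), and of 65 ethylene-responsive factors 1 fell, ERF054 (CSS044067; −3.33, adjusted p = 0.0139). Each of these 5 calls was lost without YH9_DA replicate 2, all but that at CSS009498 without YH9_DA replicate 3, and single ones without YH9_DA replicate 1 (CSS036090, CSS011764 and CSS009498) or YH9_NA libraries (CSS036090, CSS032148 and CSS044067), with adjusted p up to 0.173. The RING finger protein ATL74 (CSS006826), of a family of ubiquitin ligases, averaged 7.33 ± 2.92 FPKM in YH9_DA and 47.3 ± 15.1 FPKM in YH9_NA (−2.88, SE 0.35, adjusted p = 0.000984). The receptor kinase loci CSS011139 and CSS016924 (−2.86 and −2.82) share a description and move with nearly the same values in each library, as do the branchpoint-bridging loci CSS047450 and CSS047452 (−1.47 each), so that each pair may be 1 set of reads divided over similar copies. These 4 calls were lost in 11 to 14 fits, including those without YH9_DA replicate 1, 2 or 3 or YH9_NA replicate 1 or 3 (adjusted p up to 0.252).

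The 16 up-regulated DEGs shared no list beyond the 2 clock factors, and 9 had no described function. PAA1 (CSS000683), which moves copper into the chloroplast, had 6.47, 10.1 and 7.77 FPKM in YH9_DA, against 2.83, 3.49 and 3.49 FPKM in YH9_NA (1.14, SE 0.19, adjusted p = 0.0133). A mitochondrial substrate carrier (CSS020671) averaged 10.4 ± 0.748 FPKM in YH9_DA and 4.28 ± 0.801 FPKM in YH9_NA (1.10, SE 0.21, adjusted p = 0.0375). A leucine-rich repeat receptor kinase (CSS020086) averaged 12.4 ± 0.920 FPKM in YH9_DA and 4.30 ± 0.658 FPKM in YH9_NA (1.35, SE 0.25, adjusted p = 0.0264). An alpha galactosidase (CSS024680), an enzyme that removes galactose from raffinose-type sugars, had 9.41, 13 and 12.9 FPKM in YH9_DA, against 2.94, 5.49 and 3.18 FPKM in YH9_NA (1.42, SE 0.29, adjusted p = 0.0459), the only DEG of 52 loci of sucrose, raffinose and trehalose metabolism. Among these 9, CSS004007 had 37.6, 55.9 and 46.9 FPKM in YH9_DA, against 16, 17.5 and 16.7 FPKM in YH9_NA (1.31), CSS018959 averaged 16.6 ± 1.09 FPKM in YH9_DA and 3.78 ± 1.3 FPKM in YH9_NA (1.93, adjusted p = 0.0107), and MSTRG.3517 averaged 8.38 ± 3.24 FPKM in YH9_DA and 0.859 ± 0.177 FPKM in YH9_NA (3.10, adjusted p = 0.00417). Of the 16, only MSTRG.3517 was called in all 18 fits. The calls at CSS000683 and CSS018959 were lost in 4 fits, that at CSS020086 in 6, that at CSS020671 in 8 that at CSS024680 in 13 and that at CSS004007 in 15, with adjusted p up to 0.257. These fits included, for all 6 loci, those without YH9_DA replicate 2 or 3 or YH9_NA replicate 3.

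A part of the changed loci had no known function. Of the 109 DEGs, 19 (17.4%) carried no gene identifier, only the number of an assembled transcript, and 20 more had a description that names no function. CSS021146, a hypothetical protein, was the most abundant of them, at 24, 35.1 and 35.7 FPKM in YH9_DA, against 1124, 1002 and 1017 FPKM in YH9_NA (−5.23, SE 0.49, adjusted p = 0.000250). It averaged 21 FPKM in YH9_CA. MSTRG.975 had 65.0, 36.6 and 31.7 FPKM in YH9_DA, against 967, 728 and 652 FPKM in YH9_NA (−4.35, SE 0.48, adjusted p = 0.000555), and averaged 14.8 FPKM in YH9_CA. Neither overlapped between the groups.

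For 3 DEGs a group had no counts at all, so that only a bound can be given, against 3 counts per library. MSTRG.9894 had counts of 0, 0 and 0 in YH9_DA, against 5092, 2040 and 6304 in YH9_NA, and was at least 1639-fold lower. In YH9_CA its counts were 2983, 4054 and 0, so 1 library of that group also lacked it. CSS039269, annotated as a cold and drought-regulated CORA-like protein and placed by the table on Scaffold1318, from 1175244 to 1177150 on the minus strand, had counts of 3, 6 and 11 in YH9_DA, against 0, 0 and 0 in YH9_NA, at least 2.23-fold higher. MSTRG.4428 had 17, 3 and 3 in YH9_DA, against 0, 0 and 0 in YH9_NA, at least 2.14-fold higher. This bound rests on YH9_DA replicate 1, since replicates 2 and 3 stand at the floor of 3 counts. These last 2 rises rest on fewer than 20 counts per library. The call at MSTRG.9894 was lost in 5 fits, all without a YH9_DA or YH9_NA library, that at MSTRG.4428 in 4 and that at CSS039269 in 13 (adjusted p up to 0.149).

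Summed over their lists, the genes of the cold programme lay far below their day 14 levels on day 21. Among 23 LEA, dehydrin and cold-regulated loci 1 rose, the CORA-like locus above, and none fell, with a list median of 0.14 and an upper quartile of 0.93. Without overlap 8 were higher and 2 lower, beside 24.4% and 7.05% of all loci. Of the 23, 6 had an interval within 2-fold, so that for most of them a remaining 2-fold change could be neither called nor bounded. In the order of the days, the summed FPKM of all 30 listed loci was 491 to 800 in YH9_NA, 13001 to 13571 in YH9_CA and 699 to 845 in YH9_DA. The LEA locus CSS041102 averaged 29.7 ± 7.74 FPKM in YH9_NA, 2914 FPKM in YH9_CA and 36.7 ± 3.5 FPKM in YH9_DA, and its log2 fold change of YH9_DA vs. YH9_NA was 0.12 (interval −0.54 to 0.78, adjusted p = 0.966). LEA3L-1 (CSS015767) had 189, 222 and 252 FPKM in YH9_DA, against 91.6, 71.8 and 77 FPKM in YH9_NA, without overlap. Its change of 1.27 (interval 0.11 to 2.44) was not called over all libraries (adjusted p = 0.464) and was called with the spread of the 2 groups alone (adjusted p = 0.0314). The early light-induced protein CSS050741, which binds pigments under cold and light stress, averaged 7.83 ± 0.886 FPKM in YH9_NA, 4938 FPKM in YH9_CA and 14.1 ± 4.27 FPKM in YH9_DA (0.66, interval −1.05 to 2.38, adjusted p = 0.880).

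Of 14 CBF and DREB factors edgeR called 0, with 1 higher and 2 lower at an unadjusted p under 0.05, and DESeq2 and limma called 0. An interval within 2-fold was reached by 2 of the 14. The summed FPKM of all 18 listed factors was 96 to 156 in YH9_NA, 1503 to 1673 in YH9_CA and 90 to 115 in YH9_DA. CSS018717, the locus of the study's CBF2 primers, had 8.80, 3.10 and 5.32 FPKM in YH9_DA, against 1.57, 1.52 and 2.1 FPKM in YH9_NA, while YH9_CA averaged 1009 FPKM. These groups did not overlap, and the change of 1.55 (interval 0.22 to 2.88) was not called (adjusted p = 0.431). Of 14 fatty acid desaturases, which raise membrane fluidity, edgeR called 0, with 2 higher at an unadjusted p under 0.05, DESeq2 called 2 and limma 1. The median was 0.41, and 2 had an interval within 2-fold. Without overlap 8 of the 14 were higher and 1 lower, beside 24.4% and 7.05% of all loci. The desaturase CSS026415 had 138, 222 and 225 FPKM in YH9_DA, against 73.9, 103 and 79.0 FPKM in YH9_NA (1.01, interval 0.44 to 1.58), with an adjusted p of 0.162 in edgeR, 0.0171 in DESeq2 and 0.0198 in limma. Loci for which RT-qPCR primers exist in the study, among them those of polyamine synthesis, were looked up as well. All 20 were tested, and edgeR called 0 of them, with 3 higher at a 95% interval above 0. In DESeq2 0 had an adjusted p under 0.05 and in limma 1 (CSS002648, adjusted p = 0.0313). In edgeR the 20 had log2 fold changes of −1.43 to 1.55 and a smallest adjusted p of 0.431.

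**Figure D4:**
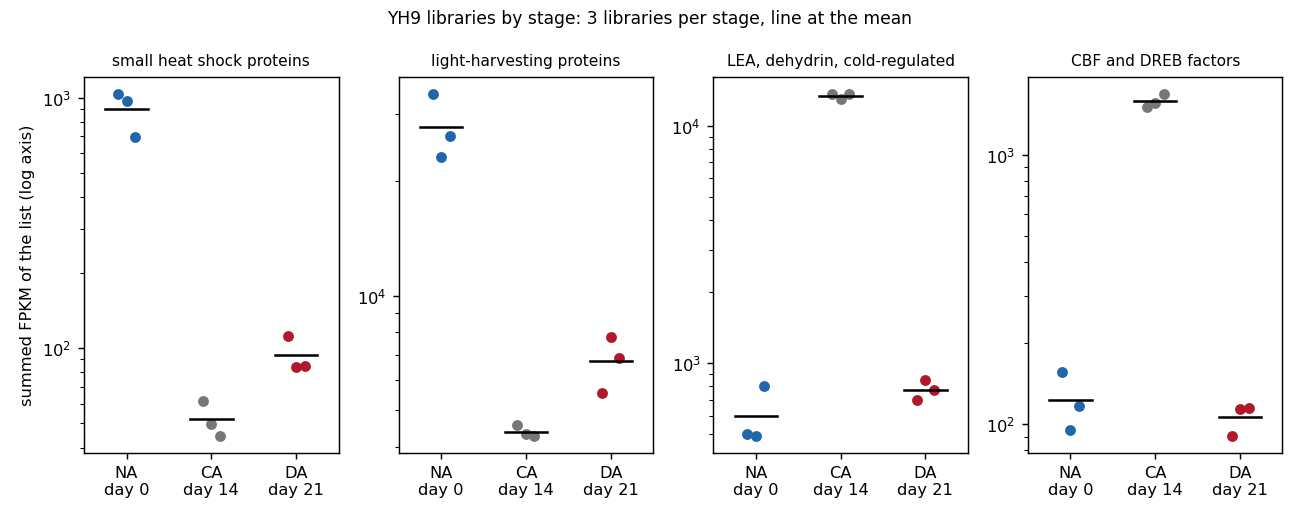
Summed FPKM (log axis) of 4 gene lists in the YH9 libraries on day 0 (NA), day 14 (CA) and day 21 (DA), 3 points per stage and a line at the mean. Small heat shock and light-harvesting proteins lie far below day 0 at both later stages, whereas LEA and CBF lists, 13001 to 13571 and 1503 to 1673 on day 14, lie at 699 to 845 and 90 to 115 on day 21.

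Several lists of metabolism and regulation held no DEG. A call was made at 0.376% of all loci, so 0 calls in a list of this size do not show that its loci were unchanged. An interval within 2-fold was reached by 11 of 36 starch loci, 11 of 32 sugar transporters and 14 of 39 polyamine, arginine and proline enzymes. The same held for 3 of 33 flavonoid and 2 of 8 caffeine and theanine loci. Of 36 starch loci edgeR called 0, with 5 higher and 1 lower at an unadjusted p under 0.05, DESeq2 called 1 and limma 0. Of 32 sugar transporters edgeR called 0 (6 higher and 1 lower unadjusted, DESeq2 2, limma 1), and of 39 polyamine, arginine and proline enzymes 0 (2 and 2 unadjusted, DESeq2 and limma 0). Flavonoid and catechin synthesis had 0 calls in 33 loci (1 and 2 unadjusted, DESeq2 and limma 0). Chalcone synthase 1 (CSS019164) varied too widely for a statement, at 1227, 561 and 832 FPKM in YH9_DA, against 749, 2391 and 878 FPKM in YH9_NA. Caffeine and theanine synthesis had 0 calls in 8 loci (0 unadjusted, DESeq2 and limma 0), and caffeine synthase (CSS040443) averaged 285 ± 48.2 FPKM in YH9_DA and 285 ± 64.7 FPKM in YH9_NA, with an interval from −1.08 to 0.75. Of 168 ribosomal proteins edgeR called 0 (1 higher and 3 lower unadjusted, DESeq2 1, limma 1), and 113 of them had an interval within 2-fold. Of 54 WRKY factors edgeR called 0 (4 higher unadjusted, DESeq2 and limma 0). Their median log2 fold change was 0.35, with 40 of 54 above 0 and 19 of 54 higher without overlap, beside 24.4% of all loci. Of 237 immune receptor and defence loci edgeR called 0 (13 higher and 5 lower unadjusted, DESeq2 3, limma 0). The median log2 fold change of these loci was 0.29, with 162 of 237 above 0 and 74 below. A larger share of them was higher without overlap than the 24.4% of all loci. With the spread of the 2 groups alone, 4 were called higher and 2 lower. Of 95 phenylpropanoid loci edgeR called 0 (2 higher and 4 lower unadjusted, DESeq2 and limma 0) and of 30 histones 0 (1 lower unadjusted, DESeq2 and limma 0). Of 34 folding proteins of the endoplasmic reticulum 1 fell, ERDJ3A above.

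In SCZ the same comparison, which shares no library with that of YH9, gave more DEGs in the fit with 1 spread estimate for all groups. SCZ_DA vs. SCZ_NA held 420 up-regulated (1.45%) and 459 down-regulated (1.58%) loci, 879 in all (3.03%). The 879 became 202 without SCZ_DA replicate 3, 374 without SCZ_NA replicate 2, 396 without SCZ_NA replicate 3, 541 without YH9_DA replicate 3 and 1865 in DESeq2. For YH9, DESeq2 called 435. The paper reports the opposite order, with fewer DEGs in SCZ than in YH9. The biological coefficient of variation was 0.472 in SCZ_DA and 0.518 in SCZ_NA, against 0.288 in YH9_DA and 0.384 in YH9_NA. A fit with the spread of the SCZ libraries alone was not run, so the order under each cultivar's own spread was not tested. Of the YH9 DEGs, 67 fell in both cultivars (72.0% of the 93 falls in YH9 and 14.6% of the 459 in SCZ), 7 rose in both (43.8% of 16 and 1.67% of 420), and 0 moved in opposite directions with a call in both. The sign was shared by 107 of 109 loci, beside 61.5% of all loci tested. The median log2 fold change of the 93 falls was −2.35 in YH9 and −2.21 in SCZ, and that of the 16 rises was 1.45 in YH9 and 0.95 in SCZ. Both comparisons drew on 1 spread estimate, and the loci were chosen by their calls in YH9.

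HSFA2 (CSS038896) had 0.707, 0.275 and 0.741 FPKM in SCZ_DA, against 4.97, 22.3 and 20.8 FPKM in SCZ_NA (−4.73), and the difference of the log2 fold changes, YH9 minus SCZ, was 0.80 (interval −0.88 to 2.48). CSS023573 had 34.8, 40.0 and 42.2 FPKM in SCZ_DA, against 886, 638 and 986 FPKM in SCZ_NA, and a difference of 0.01 (interval −1.67 to 1.68). The light-harvesting locus CSS045378 had 48.2, 60.0 and 25.0 FPKM in SCZ_DA, against 889, 942 and 999 FPKM in SCZ_NA (difference 0.29, interval −0.99 to 1.58). The fall of each of these 3 loci was thus present in both cultivars, with intervals of the difference that reach beyond 1 on the log2 scale. In the chaperone lists 28 of 144 loci fell and 4 rose in SCZ, and in the light-harvesting list 11 of 18 fell and none rose. At 2 of the 109 DEGs the sign was not shared. MSTRG.9894 had counts of 0 in all 3 YH9_DA libraries, against 5092, 2040 and 6304 in YH9_NA, while SCZ_DA had 46, 86 and 200, against 72, 26 and 28 in SCZ_NA (adjusted p of the difference 0.261). The other was CSS016265, a plastid-lipid-associated protein, at 13, 19.5 and 17.8 FPKM in YH9_DA, against 48.1, 42.5 and 38.0 FPKM in YH9_NA, while SCZ_DA had 128, 105 and 113 FPKM, against 95.1, 55.9 and 74.2 FPKM in SCZ_NA (difference −2.06, interval −2.97 to −1.15, adjusted p = 0.274). The smallest adjusted p of a difference among the 109 was 0.234, at the unnamed MSTRG.4954 (−2.35 in YH9 and −0.46 in SCZ, difference −1.88, interval −2.64 to −1.12). None of these 3 differences passed over all loci, and the call at CSS016265 in YH9 was lost in 14 fits, including those without any library of YH9_DA or YH9_NA (adjusted p up to 0.204).

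**Figure D5:**
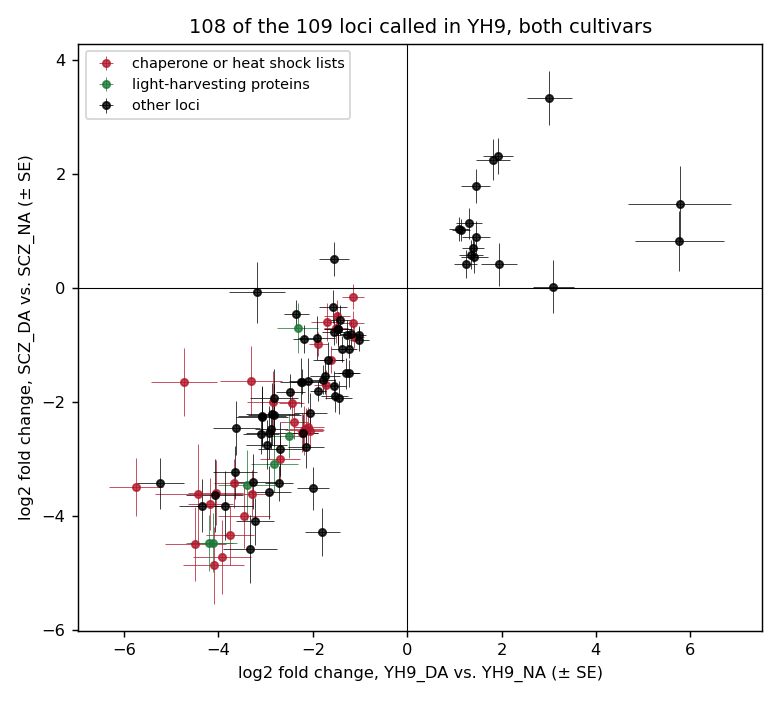
Log2 fold change of SCZ_DA vs. SCZ_NA (vertical) against that of YH9_DA vs. YH9_NA (horizontal) for 108 of the 109 loci called in YH9, with bars of 1 SE, and MSTRG.9894 left out for its scale. All but CSS016265 lie at the lower left or the upper right, where both changes have the same sign.

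The test of the difference between the cultivars called 2 loci in all (0.00689%; 2244 at an unadjusted p under 0.05), and 0 of the 109 DEGs were among them, with 27 at an unadjusted p under 0.05. DESeq2 called a difference at 6 of the 109 and limma at 2. CSS014981/MSTRG.15598, without a description, had 6.52, 15.4 and 4.15 FPKM in YH9_DA, against 3.22, 2.47 and 3.40 FPKM in YH9_NA, while SCZ_DA had 625, 491 and 1737 FPKM, against 6.12, 3.15 and 4.57 FPKM in SCZ_NA (difference −6.25, SE 0.79, adjusted p = 0.0150). CSS047289/MSTRG.6393 had 4.46, 5.98 and 5.35 FPKM in YH9_DA, against 7.02, 5.84 and 4.75 FPKM in YH9_NA, while SCZ_DA had 0.220, 0.157 and 0.192 FPKM and SCZ_NA was at 0 in all 3 libraries (difference −6.83, SE 0.81, adjusted p = 0.0150). The second difference rests on a group at 0 and its size is not a measured fold. Without YH9_DA replicate 3 the test called 0 loci, and with a replicate block also 0. Without SCZ_DA replicate 2 it called 12, over all loci DESeq2 called 157 and limma 31.

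The label of the tissue was checked against marker lists. Leaf mesophyll markers summed to 7454 to 9941 FPKM in YH9_DA, against 22745 to 30495 in YH9_NA, and the 6 DEGs among its 26 loci were the light-harvesting loci described above. Of the 26, 21 were below 0 and 5 above. The RuBisCO small subunit locus CSS017875 is not in this sum, and its mean was higher in YH9_DA, with an interval that spans 0. The Calvin cycle list above summed to 16316 to 18554 FPKM in YH9_DA, against 11598 to 15724 in YH9_NA. Markers of xylem summed to 380 to 580 FPKM in YH9_DA, against 336 to 725 in YH9_NA, and those of trichome and epidermis to 402 to 434 in YH9_DA, against 419 to 655 in YH9_NA. Markers of dividing cells summed to 73 to 98 FPKM in YH9_DA, against 74 to 79 in YH9_NA, and those of phloem to 48 to 56 in YH9_DA, against 32 to 46 in YH9_NA. The 4 listed root loci, of which 1 was tested, summed to 2 to 7 in YH9_DA, against 1 to 3 in YH9_NA. No locus of the 5 marker lists other than mesophyll was called by edgeR, with 1 higher among dividing cells and 1 lower among xylem at an unadjusted p under 0.05, and DESeq2 and limma each called 1, in dividing cells. Of the 9 phloem loci 1 was higher without overlap, and the part of phloem markers in the results was not tested.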

How the data were processed

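Leaf RNA from 6 groups of 3 libraries was sequenced, and groups were taken from the sample labels. The authors deposited FPKM values and estimated counts per locus. Per the submitters' processing notes, cutadapt 1.9, HISAT2 2.2.1 and StringTie 2.1.6 were used; reads were mapped to a tea reference genome per the study's methods. The only build in the notes is a mouse one and was not used, and the version of the tea genome, the program that wrote the counts and, for most loci, coordinates are not given in the sources used here. Reads shared by similar copies may have been split by that step.

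The deposited estimated counts were whole numbers and were used unchanged, and loci were kept where FPKM reached 1 in at least 3 libraries. edgeR 4.0.16 (R 4.3.3) fitted 1 mean per group over 18 libraries with TMM scaling and the quasi-likelihood test, with Benjamini-Hochberg adjustment over all 29019 loci. DEGs changed at least 2-fold at an adjusted p under 0.05. The same fit tested SCZ_DA vs. SCZ_NA and the difference between cultivars. Alternatives were the spread of fewer groups, DESeq2 1.42.0, limma 3.58.1 on log2(FPKM + 1) or log2(FPKM + 0.1), library totals, no filter, a replicate block and each library left out. Columns of the authors' own comparisons were not used. The study calls its replicates biological and mentions independent experiments, but neither it nor the labels tie a library to a culture or experiment, so p-values measure the spread between these libraries. Tested on simulated counts for this comparison (29019 loci, 50 per size), the edgeR fit called 48% and 44% of loci changed 4-fold up and down, 8% and 8% of those changed 2-fold up and down, and 5 unchanged loci.

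The gene lists and the comparison were chosen with earlier results of these data known. Loci were named by these rules: the 12 largest rises and falls among described DEGs without overlap whose higher group averaged 10 FPKM or more; up to 4 DEGs of highest FPKM per list; 2 loci of highest FPKM in lists described without a DEG; the loci of the RT-qPCR primers; and loci whose change differed between cultivars. Other named loci were chosen after their values were seen. Bounds for loci at 0 are against 3 counts per library and cover counting error only.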

Additional observations from a re-analysis of the deposited data

Results flagged for a closer look

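At 2 loci the change of YH9_DA vs. YH9_NA differed from that of SCZ_DA vs. SCZ_NA by the test of the difference itself in edgeR. At CSS014981/MSTRG.15598, which has no description, the log2 fold change was 1.34 in YH9 (adjusted p = 0.412) and 7.59 in SCZ (adjusted p = 0.000134), a difference of −6.25 (95% interval −7.92 to −4.58, adjusted p = 0.0150). All 3 SCZ_DA libraries, at 491 to 1737 FPKM, lay above all 3 SCZ_NA libraries, at 3.15 to 6.12 FPKM. At CSS047289/MSTRG.6393, also without a description, the difference was −6.83 (interval −8.57 to −5.09, adjusted p = 0.0150). Here the SCZ_DA libraries had 0.220, 0.157 and 0.192 FPKM and the SCZ_NA libraries were at 0, so the size of the difference depends on how the fit treats 0, and the locus was low in SCZ at both stages. YH9_DA and YH9_NA overlapped at this locus. Neither locus was called without YH9_DA replicate 3 or with a replicate block, where the test called 0 loci, while DESeq2 called 157 and limma 31.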

How the results depend on the processing

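All 109 DEGs kept their direction when single libraries were left out, which the lack of overlap between their groups left little room to change. The counts moved with the method. The up-regulated DEGs, 16 in the 18-library fit, were 179 with the spread of the 2 groups, 254 with the 9 YH9 libraries, 170 in DESeq2, 254 and 62 in limma with pseudocounts of 1 and 0.1, 26 with library totals, 8 without the filter and 7 with a replicate block, and 2 to 36 with a library left out. The down-regulated DEGs, 93, were 297, 361, 265 in DESeq2 and 144 in limma in the same order, and 28 to 142 with a library left out. The cultivar difference, 2 loci, was 157 in DESeq2, 31 in limma, 0 with the replicate block, and 0 to 12 with a library left out. The DEGs of the chaperone and heat shock lists, 31, were 9 to 35 with a library left out. Light-harvesting DEGs, 6, were 13 with the 2 groups, 15 with 9 libraries, 15 in DESeq2, 10 in limma and 2 to 9 with a library left out. Clock DEGs, 6, were 10 in each of the first 3 of these and 1 to 8. Aquaporin DEGs, 3, were 9, 6 and 7 in these and 0 to 5. SCZ DEGs, 879, were 1865 in DESeq2 and 202 to 1291. An alternative added after seeing the data left single libraries out of the 2-group fit, where 476 DEGs became 108, 0 and 2 without YH9_DA replicates 1, 2 and 3, and 330, 213 and 428 without YH9_NA replicates 1, 2 and 3. The cause was not tested. Over the named loci and 30 settings, 216 results lost their call, 14 gained it, 14 uncalled values moved by more than the spread between replicates, 4012 did neither, and no direction of a called value reversed. Same-numbered libraries did not deviate together (r = −0.093, −0.13 and 0.054), so the numbers were not taken as pairs, and the block ended the call of 9 named loci.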
